A study of Rattus norvegicus with 2 samples.

Results

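The respiratory chain genes were described here in single cells of the rat carotid artery. Members were all gene symbols that begin with Nduf, Uqcr, Cox4 to Cox8, Atp5 or Mt-, together with Sdha, Sdhb, Sdhc and Sdhd. This gave 107 of the 30017 symbols in the count table, 13 of them encoded by mitochondrial DNA (Mt- genes) and 94 by nuclear genes. Of the nuclear members 37 belong to complex I, 8 are complex I assembly factors, 4 belong to complex II, 8 to complex III, 21 to complex IV and 16 to complex V, the ATP synthase. Ndufa4 and its relative Ndufa4l2 were counted with complex IV. The name pattern takes in a pseudogene (Cox6c-ps1) and the ATP synthase inhibitor Atp5if1. It leaves out the complex III subunit Cyc1 (cytochrome c1) and the electron carrier Cycs (cytochrome c). Cox6b1, Ndufv3 and Uqcrb are each listed more than once, and their counts were summed.

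Electrons from food oxidation enter the inner mitochondrial membrane through complexes I and II, pass through complex III and cytochrome c to complex IV and reach oxygen, and the proton gradient built on the way drives ATP synthesis by complex V. Complexes I, III, IV and V are mosaics of subunits from mitochondrial DNA and from the nucleus, while complex II is nuclear throughout. Vascular smooth muscle cells (VSMCs) of the arterial wall contract for long periods at a low energy cost, and fibroblasts of the adventitia mainly make matrix.

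The control library held cells of the normal left carotid arteries of 2 male SD (Sprague-Dawley) rats, and the case library held cells of the balloon-injured right arteries of the same 2 rats. The injury strips the endothelium and stretches the wall, and arteries were taken 28 days later and digested with trypsin and collagenase. Rats were 8 weeks old at the start by the study's methods and 12 weeks old by the sample labels. Each group was 1 library of pooled arteries with no drug or transgene in either, so the libraries could be compared but no test between conditions was possible, and side, surgery and library cannot be told apart. Values are unique molecular identifiers (UMIs), each standing for 1 captured RNA molecule. Levels are given as CPM, for which UMIs were added up over the cells of a class and scaled to a total of 1000000, and brackets after log2 ratios (case over control) hold exact 95% intervals that cover counting error only. UMIs count transcripts at their 3′ end and no transcript lengths were used, so levels were compared between classes and libraries and not between genes.

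After filtering, 2742 control and 4930 case barcodes were kept. Classes were gated on the share of marker UMIs. The VSMC class (Acta2, Tagln, Myl9, Cald1, Myh11, Cnn1) held 1021 control and 2385 case cells, the fibroblast class (Col1a1, Col3a1, Dcn, Pdgfra, Lum, Pi16) 768 and 1455, the endothelial class 55 and 224, the macrophage class 38 and 105, and the Schwann class 20 and 42. No class held 736 control and 624 case barcodes, and 103 and 92 matched several gates and were left out. Barcodes in no class had a median of 685.5 UMIs in the control and 3265.5 in the case library, where a class needed 1000 UMIs. Those in several gates had medians of 3193 and 8987. The libraries thus differ in what was left out. Control cells were deeper, with a median of 12656 UMIs in the VSMC class against 5574 in case cells, and 10896.5 against 5208 in the fibroblast class. VSMC markers summed to 26372 CPM in the control VSMC class and to 1030 in the control fibroblast class, against which low values have to be read. Barcodes with over 20% Mt- UMIs had been removed, 562 in the control library (16.9%) and 370 in the case library (6.54%), so the upper end of the Mt- shares is set by this limit.

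Upstream sequences are shown for 4 nuclear members because members with the same motif stood on opposite sides in the VSMC class. Nuclear respiratory factor 1 (NRF1) and ETS-family factors such as GABP (NRF2) are known activators of nuclear respiratory chain genes. Their motifs GCGCATGCGC (NRF1, a palindrome) and CCGGAAG (ETS) were searched on both strands in the 250 bases before the RefSeq transcription start (assembly GRCr8, a later build than that of the counts), and 82 of the 94 nuclear members had an entry. The NRF1 motif was found in 6 of these 82 promoters (7.32%), against 0.849% of all 27457 promoters. The ETS motif was found in 21 (25.6%), against 7.74% of all promoters. All promoters were taken whether or not their genes were found in these cells. Whether these shares are particular to respiratory chain genes was not tested. Capitals mark the motifs, and in Ndufa11 they overlap as a pair. The windows are chr14:1464610-1464859 (plus strand) for Atp5me, chr9:1637364-1637613 (plus) for Ndufa11, chr7:135678219-135678468 (minus) for Atp5mc2 and chr16:19560276-19560525 (plus) for Ndufa13.
Atp5me (NRF1 and ETS): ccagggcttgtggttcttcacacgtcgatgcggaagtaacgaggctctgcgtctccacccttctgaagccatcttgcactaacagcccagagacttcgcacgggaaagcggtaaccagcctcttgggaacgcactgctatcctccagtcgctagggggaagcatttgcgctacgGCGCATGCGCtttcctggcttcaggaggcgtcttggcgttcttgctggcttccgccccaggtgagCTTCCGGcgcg
Ndufa11 (NRF1): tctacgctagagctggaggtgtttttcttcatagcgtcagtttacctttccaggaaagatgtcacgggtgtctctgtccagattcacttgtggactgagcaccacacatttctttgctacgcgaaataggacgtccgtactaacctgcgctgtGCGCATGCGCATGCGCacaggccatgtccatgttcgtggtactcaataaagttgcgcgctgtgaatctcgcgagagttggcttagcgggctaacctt
Atp5mc2 (NRF1): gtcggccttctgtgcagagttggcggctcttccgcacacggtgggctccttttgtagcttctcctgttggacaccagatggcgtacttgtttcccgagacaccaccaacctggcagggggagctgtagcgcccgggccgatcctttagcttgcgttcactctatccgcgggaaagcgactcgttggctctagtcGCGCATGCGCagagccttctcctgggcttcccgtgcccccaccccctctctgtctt
Ndufa13 (ETS): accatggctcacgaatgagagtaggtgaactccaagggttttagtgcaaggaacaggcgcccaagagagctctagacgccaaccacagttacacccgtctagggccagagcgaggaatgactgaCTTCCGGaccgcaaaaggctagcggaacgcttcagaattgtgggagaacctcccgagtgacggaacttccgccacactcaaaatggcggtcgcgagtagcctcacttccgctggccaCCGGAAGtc
Atp5me, a membrane subunit of ATP synthase, had 217.7 CPM in the control and 347 in the case VSMC class (log2 ratio 0.67 [0.61 to 0.74]), and Ndufa11 of complex I 209 and 322 (0.62 [0.55 to 0.69]). Atp5mc2, 1 of the genes for the ATP synthase c-ring, had 431.7 and 248 (-0.80 [-0.86 to -0.74]), and Ndufa13 of complex I 157.7 and 83.9 (-0.91 [-1.02 to -0.81]). These 4 genes were picked after their values were seen, the pair with higher and the pair with lower values. Among members at least 1.5-fold higher, within 1.5-fold and at least 1.5-fold lower in the case VSMC class, 4 of 19, 10 of 30 and 4 of 17 promoters held the ETS motif. In the same order, 2 of 19, 1 of 30 and 1 of 17 held the NRF1 motif. A match describes letters and not a bound site.

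The VSMC class held the highest share of respiratory chain RNA of the 5 classes, for nuclear members in both libraries and for Mt- genes in both. Mt- genes took 5.85% of UMIs in the control VSMC class and 6.50% in the case VSMC class. In the fibroblast class they took 2.31% and 2.54%, in the endothelial class 3.02% and 3.62%, in the macrophage class 3.17% and 3.92% and in the Schwann class 5.03% and 4.28%. Nuclear members summed to 20749 CPM in the control and 24927 CPM in the case VSMC class. Their sums were 9170 and 10032 in the fibroblast class, 12457 and 12945 in the endothelial class, 10549 and 14351 in the macrophage class and 10862 and 17594 in the Schwann class. The Mt- sum of the VSMC class was thus 2.53-fold that of the fibroblast class in the control library and 2.56-fold in the case library, and the nuclear sum 2.26-fold and 2.48-fold. The quartile ranges of single cells did not overlap between VSMCs and fibroblasts in either library. From the lower to the upper quartile, control VSMCs held 1.68% to 2.42% of UMIs in nuclear members and control fibroblasts 0.692% to 1.12%.

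**Figure D1:**
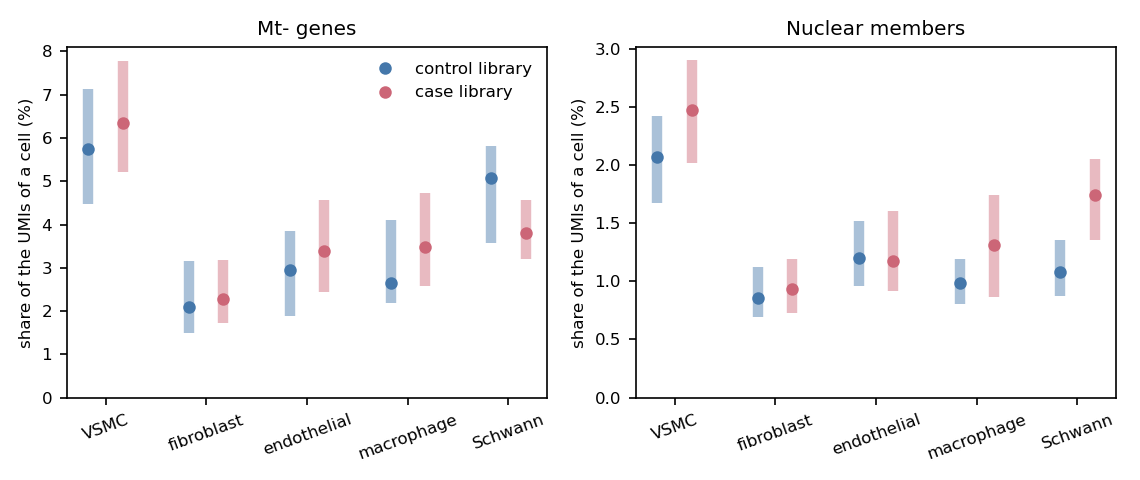
Share of the UMIs of a cell (y axis, %) in the 13 Mt- genes (left) and the 94 nuclear members (right) by cell class (x axis) and library (colour). Points are medians over cells and bars run from the lower to the upper quartile. In both panels the VSMC class sits highest in both libraries, with Mt- medians of 5.74% and 6.34% and nuclear medians of 2.06% and 2.48%.

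The difference between VSMCs and fibroblasts ran through nearly all members that passed a filter on low values. All 13 Mt- genes, and 66 of the 73 nuclear members with a mean of at least 20 CPM over both classes in each library, were at least 1.5-fold higher in the VSMC than in the fibroblast class in both libraries, against 25.4% of all 4410 genes with the same filter. Of these 73 members, 0 were at least 1.5-fold lower in both libraries, against 18.4% of all genes. The median log2 ratio of these nuclear members was 1.24 in the control and 1.32 in the case library, beside 0.11 and 0.08 over all genes. Complex II, which also belongs to the citrate cycle, had the widest gap of the nuclear complex sums, 3.61-fold in the control and 3.18-fold in the case library. Its membrane anchor Sdhc stood at 248 CPM in control VSMCs and 44.2 in control fibroblasts, and at 176 and 36.3 in the case library. Complex IV members together were 2.33-fold higher in the control and 2.71-fold higher in the case library. The catalytic subunit Mt-co1 had 9808 and 4091 CPM in control VSMCs and fibroblasts and 11775 and 4921 in the case library, so the classes stood apart in both. Ribosomal protein genes, also a large abundant group, were 0.922-fold and 0.895-fold in VSMCs relative to fibroblasts.

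The 7 members that did not reach 1.5-fold in both libraries were Atp5if1, Ndufa5, Cox5a, Cox7a2l, Uqcrh, Uqcrfs1 and Atp5md, named after their values were seen. Ndufa5 of complex I had a log2 ratio of VSMC over fibroblast of 0.00 in the control library, with 307.2 and 307.6 CPM, and of 0.79 in the case library. Cox5a, a complex IV subunit, had 0.26 and 0.16. The assembly factor Ndufaf4 lay on the other side, at -1.15 in both libraries, but did not pass the filter on low values. Ndufa4l2, described below, also lay there, with 0.0787 CPM in control VSMCs and 50.2 in control fibroblasts. It did not pass this filter in the case library.

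**Figure D2:**
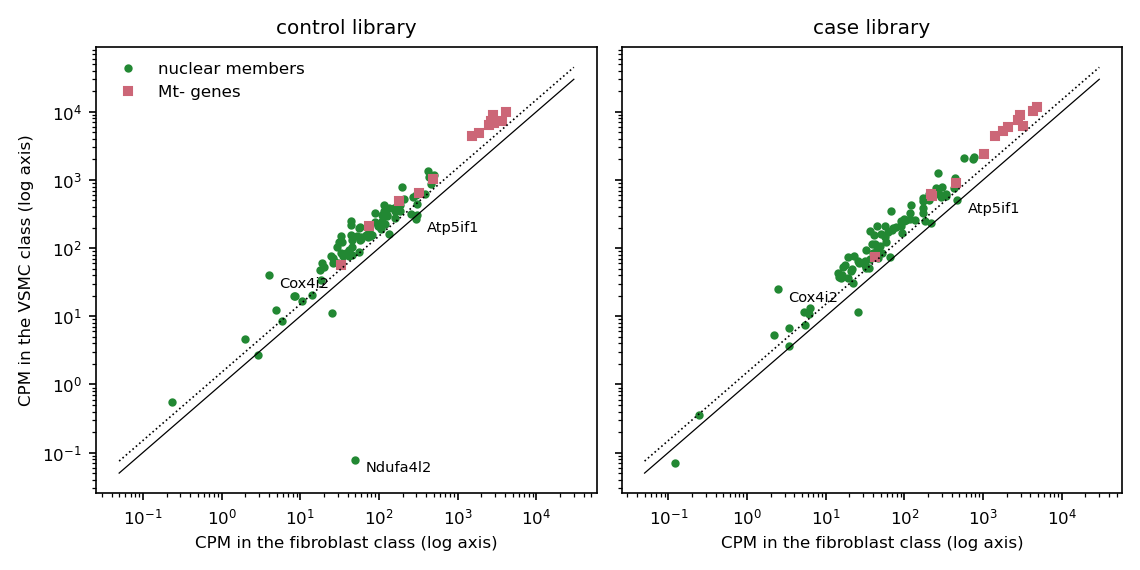
Level of each member in the fibroblast class (x axis, CPM, log scale) against the VSMC class (y axis, CPM, log scale) in the control (left) and case (right) library, for members with at least 1 UMI in both classes. The solid line marks equal levels and the dotted line 1.5-fold. Nearly all members lie above the dotted line, Cox4i2 farthest above it, Atp5if1 close to the solid line and Ndufa4l2, shown for the control library, far below.

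Against the endothelial class, 40 of 74 nuclear members and 8 of 13 Mt- genes were at least 1.5-fold higher in VSMCs in both libraries (16.9% of 4512 genes), and 0 of the 74 and 0 of the 13 were lower (16.2%). Against the macrophage class, 49 of 73 nuclear members and 10 of 13 Mt- genes were higher in VSMCs (28.8% of 4499 genes). The 1 member lower in VSMCs than in macrophages was Atp5if1 (26.0% of all genes). This gene encodes the inhibitor that blocks ATP hydrolysis by ATP synthase when the proton gradient collapses. It had 263.9 CPM in VSMCs, 296 in fibroblasts, 274 in endothelial cells and 903 (801 to 1013) in macrophages of the control library. In the case library the same classes had 502, 471, 422 and 1184 (1099 to 1275). Macrophages thus stood apart from the other 3 classes in both libraries, and the VSMC, fibroblast and endothelial levels lay close together within each.

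In the VSMC class the case library held more nuclear chain RNA in sum, but its members stood on both sides. The nuclear sum was 1.20-fold higher in the case library (log2 ratio 0.26 [0.26 to 0.27]), while the median log2 ratio over the 75 members with a mean of at least 20 CPM was -0.25, beside -0.13 over all 4750 genes that passed. The sum and the median thus differ in sign. Of these 75 members 20 were at least 1.5-fold higher (26.7%), where 6.06% of all genes were, and 20 were at least 1.5-fold lower (26.7%), where 14.7% of all genes were. Ribosomal protein genes were split as well, with 23 higher and 33 lower of 70 and a share of all UMIs of 11.2% in the control and 13.3% in the case library, and depth differed as given above. The part of either in the members' values was not tested. With TMM scaling, which raised all log2 ratios of this class by 0.12, 23 members were higher (30.7%) and 15 lower (20%). Of all genes 435 (9.16%) and 466 (9.81%) were.

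Complex I takes electrons from NADH, and its nuclear members stood on both sides. Of 33 past the filter, 7 were at least 1.5-fold higher in case VSMCs (21.2%) and 12 lower (36.4%), where 6.06% and 14.7% of all genes were. The sum of the nuclear complex I members was 5107 CPM in the control and 5406 in the case library. The accessory subunit Ndufa5 had 307.2 CPM in the control and 581 in the case library (0.92 [0.87 to 0.98]). Ndufb2, another accessory subunit, had 388 and 651 (0.75 [0.70 to 0.80]). Ndufb8 had 349 and 199 (-0.81 [-0.88 to -0.74]), in the opposite direction. Ndufc2 had 148.9 and 71.3 (-1.06 [-1.18 to -0.95]), and Ndufab1, the acyl carrier protein of the complex, 133.8 and 69.6 (-0.94 [-1.06 to -0.83]). The core subunit Ndufs3 had 71.8 and 37.1 CPM (-0.95 [-1.11 to -0.80]), and Ndufs1 had 19.5 and 13.1 and did not pass. Assembly factors Ndufaf8 (76.4 and 122 CPM) and Ndufaf2 (20.8 and 36.5) were the members of that group that passed, and both were higher in the case library.

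Complex II gave lower values in case VSMCs. The 8 complex III members, which leave out Cyc1, had a similar sum of 1858 CPM in the control and 1834 in the case library. The 4 complex II genes summed to 507 CPM in the control and 355 in the case library. Each was lower in the case library, from -0.35 for Sdha, the flavoprotein, to -0.67 for the anchor Sdhd. Sdhd was the 1 of the 4 past 1.5-fold (25%, where 14.7% of all genes were lower). Of the 8 complex III genes 1 was higher (12.5%) and 2 lower (25%) past 1.5-fold, where 6.06% and 14.7% of all genes were. Uqcrh, the hinge subunit at cytochrome c1, had 439.9 and 254 CPM (-0.79 [-0.85 to -0.73]) and the iron-sulfur protein Uqcrfs1 87.2 and 51.2 (-0.77 [-0.90 to -0.63]). Uqcr10, a small subunit, stood on the other side with 391.5 and 619 (0.66 [0.61 to 0.71]). Uqcrb had 325 and 430.7, within 1.5-fold. Over all kept barcodes its summed entries went opposite ways. The smaller held 304 control and 226 case UMIs and the larger 5095 and 7837.

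Complex IV, which reduces oxygen, had the largest ratio of sums among the nuclear complexes in the VSMC class. Its 21 nuclear members summed to 8069 CPM in the control and 11774 in the case library, 1.46-fold. Of 13 past the filter 7 were at least 1.5-fold higher (53.8%) and 2 lower (15.4%), where 6.06% and 14.7% of all genes were. Their median log2 ratio was 0.64, beside -0.13 over all genes. Cox6c had 1103 and 2022 CPM (0.87 [0.84 to 0.90]) and Cox7c 1192 and 2176 (0.87 [0.84 to 0.90]). Cox8a had 1369 and 2127 (0.64 [0.61 to 0.66]). All 3 are small accessory subunits. Cox4i1, the largest of the common nuclear subunits and a site of regulation by ATP, had 863 and 613 CPM (-0.49 [-0.53 to -0.45]), and Cox5a, its partner in early assembly, had 162 and 74.3 (-1.13 [-1.24 to -1.02]), the lowest log2 ratio of the 75 members. Cox6a1 had 521 and 508, nearly equal in both libraries.

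Complex V members also divided. Of 15 past the filter 3 were at least 1.5-fold higher (20%), 3 lower (20%) and 9 within 1.5-fold. Of all genes 6.06% were higher and 14.7% lower. The catalytic beta subunit Atp5f1b had 624.5 and 757 CPM in VSMCs and the alpha subunit Atp5f1a 292 and 268, both within 1.5-fold. The inhibitor Atp5if1 had 263.9 and 502 (0.93 [0.87 to 0.99]), the largest log2 ratio of the nuclear members in this class. Atp5mf, a membrane subunit, had 438 and 753 (0.78 [0.73 to 0.83]). The c-ring is built from the same peptide made by Atp5mc1, Atp5mc2 and Atp5mc3. Atp5mc1 had 241 and 113.7 CPM (-1.08), Atp5mc2 is given with its promoter, and Atp5mc3 had 273 and 260.4 (-0.07). The gene with the smallest difference was thus Atp5mc3, and the other c-ring genes were lower in the case library.

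**Figure D3:**
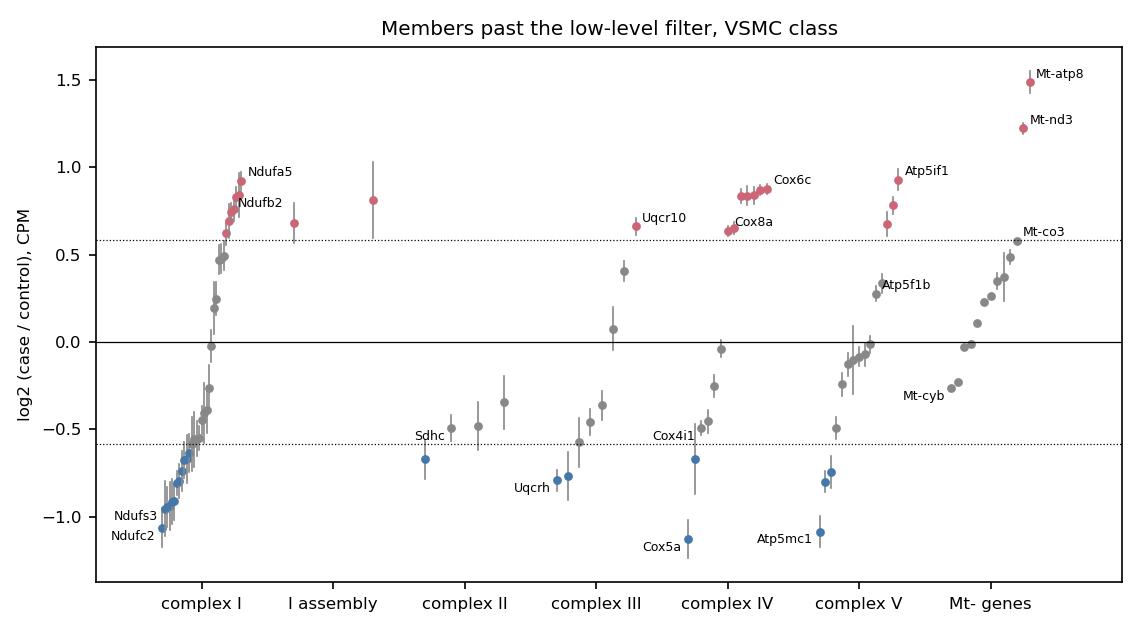
Log2 ratio of the case over the control library in the VSMC class (y axis) for members with a mean of at least 20 CPM, ordered within each complex (x axis). Points are members, vertical lines exact 95% counting intervals, red and blue members at least 1.5-fold higher and lower, and dotted lines 1.5-fold. Complexes I, III, IV and V each hold members on both sides, while the 4 complex II genes lie below 0.

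The 13 Mt- genes are transcribed as long joint precursors, yet their ratios differed. In VSMCs 2 of 13 (15.4%) were at least 1.5-fold higher in the case library and 0 lower, where 6.06% of all genes were higher and 14.7% lower. Mt-nd3 had 1023 CPM in the control and 2388 in the case library (1.22 [1.19 to 1.25]). Mt-atp8 had 210.0 and 588 (1.49 [1.42 to 1.55]), and its reading frame overlaps that of Mt-atp6, so reads of both cannot be fully told apart. Mt-atp6 had 9055 and 8890 (-0.03 [-0.04 to -0.02]). Mt-nd4l and Mt-nd4, which overlap in the same way, had 493 and 628 (0.35) and 4457 and 4423 (-0.01). Cytochrome b, Mt-cyb, had 7309 and 6081 (-0.27 [-0.28 to -0.25]). The complex IV genes Mt-co1, Mt-co2 and Mt-co3 had log2 ratios of 0.26, -0.23 and 0.58, the last just under 1.5-fold. Mt-nd6, on the other strand of the mitochondrial DNA, had 57.5 and 74.4 CPM (0.37). The sum of all 13 was 1.11-fold higher in case VSMCs (0.15 [0.15 to 0.16]), and this value was 0.07 when each cell had the same weight, 0.10 with no limit on Mt- share and 0.27 with TMM scaling.

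In the fibroblast class the control and case sums lay closer. The nuclear sum was 1.09-fold (0.13 [0.12 to 0.14]) and the Mt- sum 1.10-fold (0.13 [0.13 to 0.14]), and with equal weight for each cell these log2 ratios were 0.05 and 0.04. Of 73 nuclear members past the filter 12 were at least 1.5-fold higher (16.4%, against 5.81% of all genes) and 22 lower (30.1%, against 13.0%), with a median log2 ratio of -0.24 beside -0.07 over all genes. Of the 22 lower members 7 were under 20 CPM in the case library and passed through the control library. They were Ndufa8, Ndufa9, Ndufs3, Ndufs5, Ndufs8 and Ndufv2 of complex I, and Ndufa4l2, counted with complex IV. Complex IV had 4 higher and 2 lower of 13, complex I 4 higher and 14 lower of 32 and complex V 2 and 2 of 15. Cox6c had 436 and 755.5 CPM (0.79 [0.73 to 0.85]), Cox6b1 185.8 and 305 (0.72 [0.63 to 0.81]) and Cox5a 135.8 and 66.4 (-1.03 [-1.18 to -0.88]). Atp5mc1 had 88.1 and 41.9 (-1.07 [-1.26 to -0.88]). Of Mt- genes, Mt-nd3 had 486.7 and 1041 (1.10) and Mt-atp8 74.2 and 223 (1.59), and the other 11 lay within 1.5-fold.

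The smaller classes gave wider intervals. In the endothelial class, with 423686 control UMIs, 9 of 74 nuclear members were higher (12.2%, against 17.5% of all genes) and 27 lower (36.5%, against 28.4%). With TMM scaling the counts were 12 (16.2%) and 20 (27.0%), against 25.8% and 18.7% of all genes, so under both scalings the higher members were below and the lower members above the share of all genes. Complex I held 18 of the lower members, among them Ndufc2 with 155.8 and 55.3 CPM (-1.49 [-2.03 to -0.96]). Of the 27 lower members 5 were under 20 CPM in the case library and passed through the control library. One of them is Ndufs1, with 16 and 8 UMIs (37.8 and 7.63 CPM). Ndufa4 had 174.7 and 303 (0.80 [0.43 to 1.18]). Fos, an early gene that tissue digestion can raise, was at 4855 CPM in control and 2149 in case endothelial cells, and 2360 and 2375 in VSMCs. All 3 dissociation genes found summed to 14107 and 8568 CPM in endothelial cells, and the mural marker Rgs5 stood at 269 and 77.3. The part of either in the endothelial values was not tested. In the macrophage class 25 of 69 nuclear members were higher (36.2%, against 22.7% of all genes) and 7 lower (10.1%, against 15.8%). Complex I held 14 of the higher ones, among them Ndufb4 with 40.9 and 103.7 CPM (13 and 62 UMIs, 1.34 [0.46 to 2.33]) and Ndufb3 with 22.0 and 78.6 (7 and 47 UMIs, 1.84 [0.68 to 3.23]). Of the 25 higher members 3 were under 20 CPM in the control library and passed through the case library, Ndufa6 among them with 4 and 46 UMIs (12.6 and 76.9 CPM), and 2 of the 7 lower ones passed through the control library in the same way. In macrophages the dissociation genes summed to 840 CPM in the control and 1532 in the case library (Fos 160 and 433), and all 6 VSMC markers were found, at 931 and 1540 CPM in sum. Their part in the macrophage values was not tested. The nuclear sum was 1.36-fold higher in case macrophages (0.44 [0.39 to 0.50]) and 1.04-fold in case endothelial cells (0.06 [0.01 to 0.10]).

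The same members can be read across the 4 classes, which share their libraries and so are not independent. The members given were mostly named for a high level in control VSMCs or for the largest ratios in these classes, so they do not stand for all members. Atp5f1e, the epsilon subunit of ATP synthase, picked later, had log2 ratios of -0.49 in the VSMC, -0.66 in the fibroblast, -0.18 in the endothelial and 0.75 in the macrophage class. Cox6c had log2 ratios of 0.87, 0.79, 0.78 and 0.89 in the VSMC, fibroblast, endothelial and macrophage classes. Cox7c had 0.87, 0.60, 0.60 and 1.02, and Atp5mf 0.78, 0.56, 0.69 and 0.96. Mt-nd3 had 1.22, 1.10, 1.20 and 1.62. These 4 members were higher in the case library in each class. Cox5a had -1.13, -1.03, -0.79 and -0.91, Atp5f1d, the delta subunit of the ATP synthase stalk, -0.74, -0.55, -1.01 and -0.73, and Uqcrh -0.79, -0.75, -0.57 and -0.51, all lower in each class. Ndufb8 had -0.81, -0.69 and -1.25 in the first 3 classes and 0.28 [-0.34 to 0.93] in macrophages, where the interval holds 0. Atp5if1 had 0.93, 0.67, 0.62 and 0.39. Ribosomal protein genes were on both sides in each class too, with 21 higher and 30 lower of 70 in fibroblasts, 22 and 25 of 71 in endothelial cells and 23 and 19 of 70 in macrophages, and whether the split of the chain genes shares a source with theirs was not tested.

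**Figure D4:**
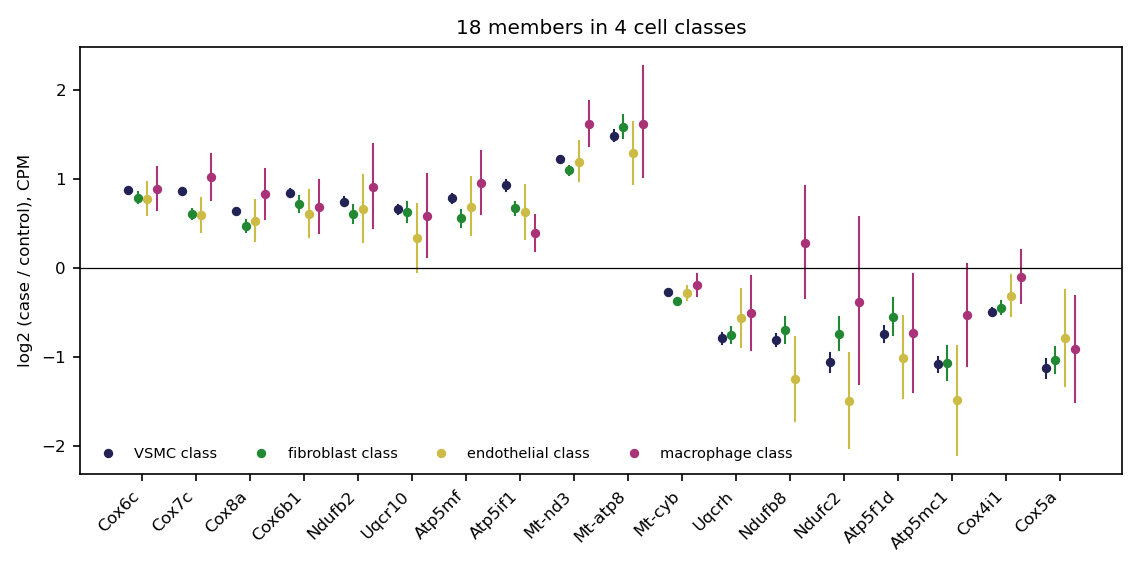
Log2 ratio of the case over the control library (y axis) for 18 members (x axis), mostly named for their level or ratio, in the VSMC, fibroblast, endothelial and macrophage classes (colours), with exact 95% counting intervals. The 10 members at the left lie above 0 in all 4 classes, up to 1.62 for Mt-atp8 and Mt-nd3 in macrophages. At the right all values lie below 0 except that of Ndufb8 in macrophages.

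Ndufa4l2 was counted in fibroblasts, with at most 1 UMI in the VSMC class of either library. It encodes a relative of the complex IV subunit Ndufa4 that is known as a target of hypoxia signalling. In the fibroblast class it had 427 UMIs in the control library (50.2 CPM) and 101 in the case library (12.4 CPM), a log2 ratio of -2.02 [-2.35 to -1.70]. It thus passed the filter on low values through the control library alone. In the VSMC class it had 1 UMI in the control and 0 in the case library, and in endothelial and macrophage cells 0 in both. Cells with a UMI made up 204 of 768 control fibroblasts (26.6%, Clopper-Pearson 23.5 to 29.8) and 72 of 1455 case fibroblasts (4.95%, 3.89 to 6.19), at median depths of 10896.5 and 5208 UMIs. The share in control VSMCs, which serve as the background for free RNA, was 1 of 1021 cells (0.0979%). For scale, the fibroblast gene Dcn was 71.7-fold and Col3a1 10.1-fold higher in control fibroblasts than in control VSMCs. Both are gate markers of the fibroblast class, so these values depend on the gating. When each cell was thinned to 2000 UMIs, which left out 47 control and 77 case fibroblasts, the shares were 7.63% (5.80 to 9.81) and 2.03% (1.35 to 2.92). In 55 control and 7 case fibroblasts Ndufa4l2 had 3 or more UMIs, at the unlike depths given above. Whether its UMIs gathered in some cells beyond what level and depth give was not tested. Ndufa4 itself stood at 195.5 and 268 CPM in fibroblasts (0.46) and at 799 and 1257 in VSMCs (0.65), higher in the case library in both classes.

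The difference in Ndufa4l2 was seen on either side of a split by Pi16, a marker of adventitial fibroblasts. Fibroblasts with 3 or more Pi16 UMIs were 579 of 768 control cells and 560 of 1455 case cells, and they had 52.1 CPM of Ndufa4l2 in the control and 18.8 in the case library. Fibroblasts with fewer had 41.3 and 7.55 CPM. Pi16 itself was at 2158 CPM in control and 897 in case fibroblasts, and the control cells were deeper, so a fixed limit of 3 UMIs does not select the same cells in both libraries. In fibroblasts with 3 or more UMIs of Gfpt2 the levels were 45.2 CPM in the control and 7.01 in the case library. Those with fewer Gfpt2 UMIs had 62.6 and 21.5 CPM. The 160 case fibroblasts with 3 or more UMIs of Postn held 0 UMIs of Ndufa4l2. Only 17 control fibroblasts had 3 or more, and they held 2 UMIs of Ndufa4l2 (11.5 CPM). Fibroblasts with fewer Postn UMIs had 51.0 and 14.5 CPM. The nuclear sum of control fibroblasts was 9141 CPM in cells with 3 or more Pi16 UMIs and 9301 in those with fewer, 8865 and 9933 when split by Gfpt2, and 10330 (17 cells) and 9145 when split by Postn. In case fibroblasts the same splits gave 9883 and 10144, 10029 and 10036, and 10747 and 9910 CPM. The Mt- share with more and fewer Gfpt2 UMIs was 1.99% and 3.12% in the control and 2.14% and 3.22% in the case library. Split by Pi16 it was 2.15% and 3.05%, and 2.43% and 2.63%. Split by Postn it was 4.35% (17 cells) and 2.27%, and 2.60% and 2.53%. Control cells with more Gfpt2 UMIs were deeper (medians of 13531 and 7092 UMIs), and the part of depth was not tested. Control VSMCs with more and fewer Spp1 UMIs had nuclear sums of 20612 and 20925 CPM, and case VSMCs 23874 and 25258. Their Mt- shares were 5.56% and 6.22% in the control and 6.14% and 6.61% in the case library. VSMCs with 3 or more Notch1 UMIs had 19661 and 22761 CPM in the control and case libraries, against 20923 and 25035 in the others. Their Mt- shares were 5.59% and 5.70%, against 5.89% and 6.54%.

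Cox4i2 showed the reverse distribution. It encodes an alternative form of Cox4 that is known in lung and in smooth muscle and for oxygen sensing. In the VSMC class it had 506 UMIs in the control (39.8 CPM) and 353 in the case library (25.1 CPM), a log2 ratio of -0.67 [-0.87 to -0.47]. Fibroblasts had 34 and 20 UMIs (4.00 and 2.45 CPM), so VSMCs were 9.97-fold (7.04 to 14.6) higher in the control and 10.2-fold (6.52 to 17.0) higher in the case library. Myh11, a contractile gene of VSMCs, was 27.3-fold and 22.7-fold higher in VSMCs, but it is a gate marker, so these values depend on the gating. Cells with a Cox4i2 UMI were 34.6% of control and 12.9% of case VSMCs, and at 2000 UMIs per cell 8.50% (6.82 to 10.4) and 4.45% (3.65 to 5.36). In fibroblasts the shares at 2000 UMIs were 0.693% and 0.508%. Endothelial cells held 1 and 0 UMIs and macrophages 0 and 1. Markers of microvascular mural cells, which can also carry this gene, summed to 220.5 CPM in control and 275 in case VSMCs, with 3 of 4 markers found and Higd1b at 0. Fibroblasts had a like sum of 252 and 236 CPM. Rgs5, 1 of the markers found, was at 0.945 and 0.711 CPM in VSMCs (12 and 10 UMIs). The list held 2801 and 3873 UMIs there, so nearly all came from the other markers found, Kcnj8 and Abcc9. Whether mural cells had a part in the Cox4i2 values was not tested.

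**Figure D5:**
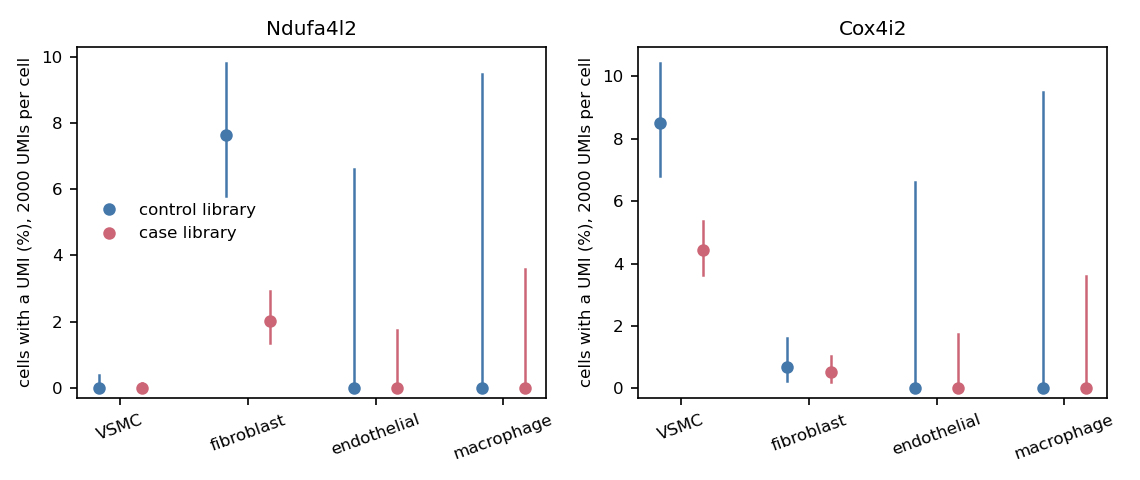
Share of cells with at least 1 UMI of Ndufa4l2 (left) or Cox4i2 (right) after thinning each cell to 2000 UMIs (y axis, %), by class (x axis) and library (colour), with Clopper-Pearson 95% intervals. Ndufa4l2 is found in fibroblasts, at 7.63% and 2.03%, and Cox4i2 mainly in VSMCs, at 8.50% and 4.45%. The wide intervals of the endothelial and macrophage classes reflect few cells.

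Some members, muscle forms of complex IV among them, were at or near the lower limit. Cox6a2, Cox7a1, Cox7b2, Cox6c-ps1 and the complex I gene Ndufa1 had 0 UMIs in all barcodes, and Atp5pb, Cox8b, Cox8c, Ndufa10l1 and Ndufs6 had 1 to 16 in the 4 classes. A count of 0 allows up to 3 UMIs, or 0.236 CPM in the control VSMC class. Ndufa1 and Atp5pb encode obligatory subunits, so a value near 0 cannot be read as absence of the subunit. The same limit holds for the other symbols with 0 UMIs, Cox6a2 and Cox7a1 among them. Cox6b2 had 2.68 and 3.70 CPM in VSMCs. The partner Cox7a2l2 had 602 and 1072 CPM in VSMCs (0.83), while Cox7a2l, an assembly protein of supercomplexes, had 321 and 234 (-0.45). How far reads of Cox7a2l and Cox7a2l2 can be told apart was not tested, nor was it for the symbols listed more than once.

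Other mitochondrial genes of VSMCs were described from lists of the pathway. Of the chain genes left out by the name pattern 3 of 6 passed the filter, and Higd1a, a complex IV factor known from hypoxia, had 148 and 257 CPM (0.79), Higd2a 69.8 and 37.6 (-0.89) and Cyc1 83.3 and 71.3 (-0.22). Of all 4750 genes past the filter in this class, 6.06% were at least 1.5-fold higher and 14.7% lower, with a median log2 ratio of -0.13. Of 8 assembly genes past the filter 2 were higher and 2 lower at 1.5-fold, with a median log2 ratio of 0.15. The 2 higher were the copper chaperone Cox17 with 181.5 and 307 CPM (0.76) and Uqcc2 with 67.5 and 109 (0.69). The 2 lower were Uqcc3 with 49.3 and 29.9 (-0.72) and Coa3 with 43.5 and 28.4 (-0.61). Of 44 mitochondrial ribosome genes 1 was higher and 21 lower (47.7%), with a median log2 ratio of -0.54. Of 11 citrate cycle genes 0 were higher and 1 lower (9.09%), with a median of -0.36. Of 9 membrane carriers 0 were higher and 2 lower (22.2%), with a median of -0.35. Of 6 regulators of mitochondrial gene expression 1 was higher and 0 lower, with a median of 0.07.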

How the data were processed

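The authors deposited unnormalized UMI counts per gene and barcode of both libraries in 1 matrix (Cell Ranger 3.1.0, per the study's methods; the submitters' processing notes name Rnor_6.0 and Seurat). Libraries were told apart by the barcode suffix, whose 3321 and 5656 barcodes equal the cell numbers in the study's text. Barcodes were kept with at most 20% Mt- UMIs, log10 UMIs and log10 genes within 2 SD of the library mean, and a gene number no more than 3 robust SD from its linear regression on UMIs. The libraries held 24968329 (control) and 28232614 (case) UMIs, and 21 barcode sequences occurred in both. A class needed 1000 UMIs, at least 2 detected markers and a marker share of at least 1% (VSMC, fibroblast), 0.1% (endothelial, macrophage, Schwann) or 0.02% (T cell, 1 and 3 cells, not described). These thresholds were set after marker levels were seen. No doublet caller was run, and barcodes in several gates were left out.

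UMIs were summed per class and library. With 1 library per group no test was made, and intervals cover counting error only (exact conditional binomial for log2 ratios, Poisson for CPM, Clopper-Pearson for shares). Counts past 1.5-fold use genes whose 2 libraries average 20 CPM or more. Named genes were all Mt- genes, per complex the 3 highest in control VSMCs, per class the 5 largest rises and falls, isoform pairs and duplicated symbols, and others named are said to be picked later or illustrate a counted group. Members and lists were chosen with earlier results of these data known. On simulated VSMC sums of 4751 genes with 200 changed 2-fold, 200 were past 1.5-fold and 94.9% of intervals covered the true ratio. The simulation drew Poisson counts with no spread between cells, rats or libraries, so it checks the calculation alone. The nuclear core subunits of complex I are not reported here as a group. Software was Python 3.11.15, numpy 2.4.6, scipy 1.17.1, pandas 2.3.3, matplotlib 3.10.9 and R 4.3.3 with edgeR 4.0.16 (TMM factors only).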

Additional observations from a re-analysis of the deposited data

Results flagged for a closer look

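The Mt- sum was lower in the case library in the Schwann class and higher in the other 4 classes. Its log2 ratio was -0.23 in Schwann cells (20 control and 42 case cells) against 0.15 in VSMCs, 0.13 in fibroblasts, 0.26 in endothelial cells and 0.30 in macrophages. The nuclear sum of the same Schwann cells went the other way, with a log2 ratio of 0.70 [0.59 to 0.80]. Schwann cells held 4.63 Mt- UMIs per nuclear chain UMI in the control and 2.43 in the case library. In the Schwann class the fibroblast markers summed to 1877 CPM in the control (5 of 6 found) and 4529 in the case library (4 of 6 found), with Pdgfra at 0 in both and Col1a1 at 1023 and 2607 CPM. The dissociation genes summed to 8932 and 3019 CPM there (Fos 3100 and 755). Their part in the Schwann value was not tested. The counting intervals of these ratios leave out 0, but the difference between classes was not tested, since each class has 1 library per group.

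Mt-co2, a core subunit of complex IV, was higher in the case library in endothelial cells (log2 ratio 0.37) and lower in VSMCs (-0.23), fibroblasts (-0.20) and macrophages (-0.15). Mt-atp6 was slightly lower in VSMCs (-0.027) and higher in fibroblasts (0.051) and macrophages (0.17). These differences between classes were not tested either, and those of Mt-atp6 are small enough to turn with the processing.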

How the results depend on the processing

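Each of the 8 sums of the VSMC, fibroblast, endothelial and macrophage classes had a log2 ratio above 0 under every alternative. The Schwann sums were not run under the alternatives. The counts of VSMC members at least 1.5-fold higher (20 to 23) and lower (15 to 25) stayed within 1.5 times those reported (20 and 20). The shares of all genes moved as well, from 6.06% higher and 14.7% lower to 9.16% and 9.81% with TMM scaling. With no filter on low values they were 13.0% and 19.4%, and 20 of 85 members, instead of 75, were higher and 25 lower. The sums moved beyond counting error as follows, and the cause was not tested. Mt- sum, VSMCs (0.15 reported): 0.18 with a limit of 10% Mt- UMIs, 0.10 with no limit, 0.14 without the 5% of barcodes with most UMIs, 0.27 with TMM scaling, 0.19 scaled to UMIs outside ribosomal protein genes, 0.17 and 0.21 with gates at 0.5 and 2 times, 0.069 with equal weight for each cell, and 0.14 with no minimum of UMIs for a class. Nuclear sum, VSMCs (0.26): 0.25 with the 10% limit, 0.39 with TMM, 0.27 scaled to UMIs outside Mt- genes, 0.30 outside ribosomal protein genes, 0.24 and 0.31 with gates at 0.5 and 2 times, and 0.29 with equal weight. Mt- sum, fibroblasts (0.13): 0.15 with the 10% limit, 0.11 without barcodes under 2000 UMIs, 0.11 without the 5%, 0.20 with TMM, 0.18 outside ribosomal protein genes, 0.061 with gates at 0.5 times and 0.044 with equal weight. Nuclear sum, fibroblasts (0.13): 0.11 without the 5%, 0.20 with TMM, 0.18 outside ribosomal protein genes, 0.11 and 0.15 with gates at 0.5 and 2 times and 0.053 with equal weight. Mt- sum, endothelial cells (0.26): 0.50 with TMM, 0.34 outside ribosomal protein genes and 0.20 with equal weight. Nuclear sum, endothelial cells (0.055): 0.00320 without the 5%, 0.29 with TMM and 0.13 outside ribosomal protein genes. Mt- sum, macrophages (0.30): 0.27 with the 10% limit, 0.26 with no limit, 0.19 without the 5%, 0.34 outside ribosomal protein genes, 0.24 with gates at 0.5 times and 0.14 with equal weight. Nuclear sum, macrophages (0.44): 0.38 with gates at 0.5 times. Leaving out barcode sequences of both libraries and setting no minimum of UMIs were chosen after seeing the data.

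Of 2568 values of named members under these alternatives, 2362 stayed within the counting interval and 198 moved past it. The other 8 changed sign although the reported interval left out 0. Sign changes of members whose reported interval held 0 were not counted apart. Mt-atp6 in VSMCs became 0.0016 (10% limit), 0.096 (TMM), 0.00890 (outside ribosomal protein genes) and 0.042 (gates at 2 times). In fibroblasts it became -0.043 (gates at 0.5 times) and -0.078 (equal weight), and in macrophages -0.065 (equal weight). Mt-nd2 in macrophages became -0.0491 (equal weight). TMM scaling moved the median log2 ratio of all genes by 0.12 in VSMCs, 0.067 in fibroblasts, 0.24 in endothelial cells and -0.032 in macrophages. In fibroblasts it gave 14 higher (19.2%) and 19 lower members (26.0%), against 7.54% and 10.8% of all genes. In macrophages it gave 25 (36.2%) and 7 (10.1%), against 21.8% and 16.7% of all genes. No paired analysis was possible because each group is 1 library of pooled arteries. Depth limits the endothelial, macrophage and Schwann classes most, with 20 to 55 control cells each.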
